A study of Mus musculus with 6 samples.

Results

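The genes described here encode the subunits of voltage-gated sodium (Nav) and calcium (Cav) channels, measured by poly(A) RNA sequencing of whole mouse spinal cord. The protein-coding genes whose symbols mark a sodium channel alpha or beta subunit or a calcium channel alpha1, alpha2delta, beta or gamma subunit were taken if their counts summed to at least 30 over all libraries. This rule gave 37 genes of the 35275 rows in the count table, 19 for pore subunits and 18 for auxiliary subunits, and 33 of them (15 pore, 18 auxiliary) had enough counts to be tested. The rule used no difference between groups. Cacna1s, with 57 counts, lay just inside the count minimum, while Cacng1 (24 counts), Scn4a (16 counts) and Cacng6 (13 counts) lay just outside it.

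Spinal cords of 3 Sox2 cKO mice (mGfap-Cre:Sox2fl/fl) were compared with those of 3 control (Ctrl) mice, all on the C57BL/6 strain. The study's methods list females and a male in each group, and the fits held no term for sex. The mGfap-Cre transgene expresses Cre recombinase under a mouse Gfap promoter, so that floxed Sox2 is lost mainly in astrocytes, and the comparison asks how the cord's transcripts differ once astrocytes lack this transcription factor. The sources differ on the controls, which are labelled mGfap-Cre:Sox2+/+, described in the series design as carrying either mGfap-Cre or Sox2fl/fl, and named as Sox2fl/fl littermates in the study's methods. They also differ on age, with postnatal day 90 in one label and postnatal day 80 elsewhere, and these differences could not be settled here. Libraries are numbered as in the deposited tables, 2, 4 and 6 for Ctrl and 1, 3 and 5 for Sox2 cKO, and values below follow that order.

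A sodium channel is built on an alpha subunit that forms the pore and starts the action potential, and beta subunits adjust its gating and anchor it at the axon initial segment and the node of Ranvier. A calcium channel is built on an alpha1 subunit that sets its type, and alpha2delta and beta subunits carry the pore to the membrane. The gamma subunits of the nervous system act mainly as TARPs (transmembrane AMPA receptor regulatory proteins), which bring AMPA-type glutamate receptors to the synapse. Pore subunits are large proteins of repeated homologous domains with long transcripts, and most auxiliary subunits have shorter ones. In the spinal cord these genes are best known in neurons, although oligodendrocyte precursors and astrocytes also transcribe some of them.

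The 6 libraries held 21507911 to 28392184 counted reads. Sox2 was at 19.9, 14.8 and 29.5 CPM (counts scaled to the size of the library) in Ctrl and at 3.16, 2.69 and 2.98 CPM in Sox2 cKO. The groups thus did not overlap, and every library matched the group it was assigned to. Summed markers of neurons ranged from 14011 to 14679 CPM in Ctrl and from 13443 to 13813 CPM in Sox2 cKO, with none of the 12 markers at 0. Astrocyte markers summed to 8536 to 10345 CPM in Ctrl and 6606 to 6844 CPM in Sox2 cKO, and oligodendrocyte precursor markers to 330 to 387 CPM in Ctrl and 208 to 267 CPM in Sox2 cKO. Of all genes tested, 12.4% fell and 12.2% rose (edgeR, adjusted p below 0.05). Among these lists, 2 of 12 neuron markers fell and 2 rose, 5 of 10 astrocyte markers fell and 1 rose, and 6 of 7 precursor markers fell. In all genes these shares also varied with gene length, as given below, and the marker lists were not compared with genes of like length. Their part in the channel values below was not tested, and in bulk tissue fewer cells of a type and less RNA per cell cannot be told apart.

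Across the channel genes, 8 of 33 differed between Sox2 cKO and Ctrl at an adjusted p below 0.05 (edgeR's quasi-likelihood test, Benjamini-Hochberg adjustment over all genes tested), which is 24.2% beside 24.6% of the 16137 genes tested. The share of channel genes that differed was thus close to the background. Scn8a, Scn2a, Cacna1d, Cacna1i, Scn2b and Cacng2 fell (6 genes, 18.2%, beside 12.4% of all genes), and 2 genes rose (6.06%, beside 12.2%), among them Cacng3. The split into falls and rises was 8 and 0 when each library's trend with GC content was removed, beside 13.9% lower and 11.9% higher of all genes. It was 3 and 2 with limma on log2(FPKM + 1), beside 6.20% and 18.1% of all genes, so the split of all genes moved as well. The median log2 fold change over the 33 genes was -0.18, beside 0.02 over all genes tested. In 10 channel genes every Sox2 cKO library lay below every Ctrl library, and in 2 genes every one lay above, beside 22.1% and 22.6% of all genes tested. With 3 against 3 libraries, an exact two-sided permutation test gives each of these 12 genes p = 0.1, the smallest it allows.

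DESeq2, the tool of the study's methods, called 11 channel genes, 9 that fell (the same 6 with Scn1a, Cacna1c and Cacna1h) and the same 2 that rose, beside 27.7% of all genes, of which 15.0% fell and 12.7% rose. The edgeR calls depended on single libraries. Without Ctrl library 2, 19 channel genes were called by edgeR, beside 36.9% of all genes. Without Sox2 cKO library 1, Ctrl library 4 or Ctrl library 6, no channel gene was called by edgeR, with 10, 9 and 9 at an unadjusted p below 0.05, beside 0.0485%, 0.159% and 6.54% of all genes called. DESeq2 called 4, 3 and 4 channel genes without these libraries, beside 17.2%, 14.5% and 17.4%. Without Sox2 cKO library 3 there was 1 edgeR call (beside 8.31%) and without Sox2 cKO library 5 there were 3 (beside 16.3%). Scn8a, Scn2b and Cacng2 were called by DESeq2 whichever of the 6 libraries was left out, and the fold changes of the 8 genes kept their signs under edgeR and DESeq2 alike.

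**Figure D1:**
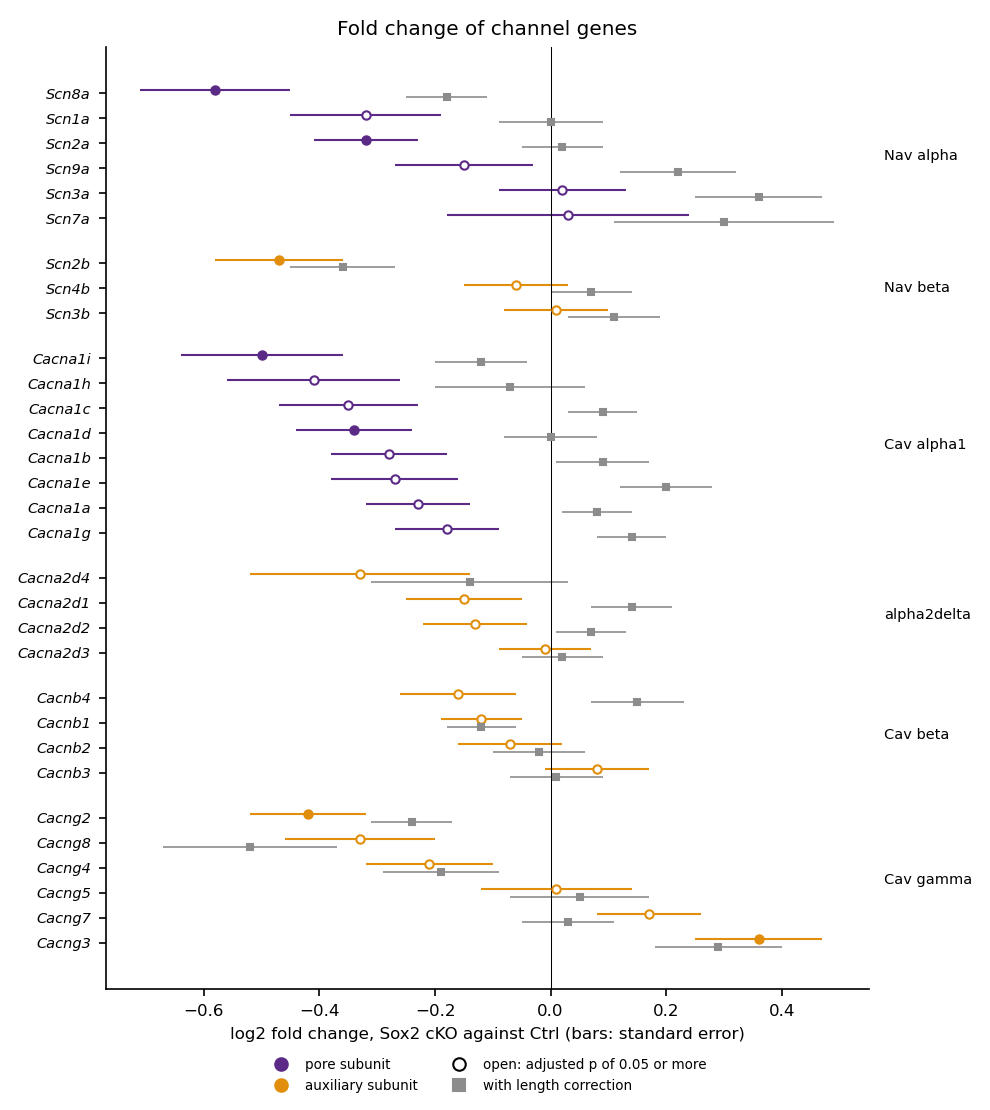
Log2 fold change (Sox2 cKO against Ctrl, x axis) of 31 of the 33 channel genes tested, grouped by subunit family on the y axis, with bars of 1 standard error. Circles are edgeR values (filled where the adjusted p was below 0.05) and grey squares are values after correction of each library for gene length. All 8 Cav alpha1 genes lie left of 0 before the correction, and 2 of them, Cacna1h and Cacna1i, lie left of it after the correction.

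Of the 9 Nav alpha genes, 7 were tested, 2 fell (28.6%) and none rose, and the median log2 fold change was -0.26. Of all genes tested, 12.4% fell and 12.2% rose. All 7 lie in the longest class of genes (from 4872 bases up, defined with the length trend). In that class 36.0% fell and 1.74% rose, with a median of -0.25. Scn8a, which encodes the main channel of mature nodes of Ranvier (ENSMUSG00000023033), lies at chr15:100869858-101045938 (mm10, + strand). It was at 353, 499 and 446 CPM in Ctrl and at 251, 305 and 312 CPM in Sox2 cKO. The groups did not overlap, and Ctrl library 2 lay nearest to the Sox2 cKO libraries. The log2 fold change of Scn8a was -0.58 (SE 0.13, adjusted p = 0.017, edgeR), the largest fall among the channel genes tested.

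Scn2a, the channel of immature and unmyelinated axons (ENSMUSG00000075318, chr2:65620771-65767447, + strand), was at 66.8, 76.7 and 79.7 CPM in Ctrl and at 57.2, 63.8 and 58.0 CPM in Sox2 cKO. Again the groups did not overlap. The log2 fold change of Scn2a was -0.32 (SE 0.09, adjusted p = 0.029, edgeR).

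Scn1a, an alpha subunit prominent in inhibitory interneurons, had the highest level per length of the family, 48.3 ± 4.63 FPKM (reads scaled by gene length and library size; SD, n = 3) in Ctrl and 41.5 ± 6.21 FPKM in Sox2 cKO. In counts it was at 381, 468 and 411 CPM in Ctrl and at 276, 382 and 355 CPM in Sox2 cKO. Sox2 cKO library 3 lay at the level of Ctrl library 2, so the groups overlapped. The log2 fold change of Scn1a was -0.32 (SE 0.13) and missed the threshold with edgeR (adjusted p = 0.092), while DESeq2 called it (adjusted p = 0.042).

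The other tested Nav alpha genes were far lower per length. Scn3a, best known from embryonic brain, had a mean of 2.13 FPKM over all libraries, and Scn9a, a channel of peripheral sensory neurons, 2.06 FPKM. Scn7a, which encodes a sodium-sensing relative of these channels, had the highest fold change of the family, at 6.42, 9.35 and 5.46 CPM in Ctrl and 5.75, 7.78 and 8.08 CPM in Sox2 cKO. Its groups overlapped over most of their range, with a log2 fold change of 0.03 (SE 0.21, adjusted p = 0.94, edgeR). The log2 fold changes of Scn3a and Scn9a were 0.02 and -0.15, and neither passed the test.

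The mix of Nav alpha transcripts shifted with Scn8a. Scn8a held 35.1% to 38.3% of the summed Nav alpha FPKM in Ctrl and 31.6% to 33.6% in Sox2 cKO, without overlap. The ratio of Scn8a to Scn1a in FPKM was 0.689, 0.792 and 0.805 in Ctrl and 0.675, 0.594 and 0.653 in Sox2 cKO. Every Sox2 cKO library thus had a lower ratio than every Ctrl library, but the gap between Ctrl library 2 and Sox2 cKO library 1 was small. The exact permutation test cannot go below p = 0.1. Scn8a is the longer gene, with 11293 bases beside 8386 for Scn1a. With the length correction given below, their log2 fold changes were -0.18 (adjusted p = 0.11, edgeR) and 0.00. The part of gene length in the share and the ratio was not tested.

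Among the Nav beta genes, Scn2b, which encodes a beta subunit joined to the pore by a disulfide bond (ENSMUSG00000070304, chr9:45117782-45130070, + strand), fell like the pore subunit Scn8a. It was at 155, 180 and 200 CPM in Ctrl and at 116, 134 and 137 CPM in Sox2 cKO. The groups did not overlap, and the log2 fold change of Scn2b was -0.47 (SE 0.11, adjusted p = 0.017, edgeR). Scn4b, the neighbouring gene on chromosome 9 and the second covalently bound beta subunit, was at 492, 489 and 464 CPM in Ctrl and at 414, 480 and 492 CPM in Sox2 cKO. Its groups overlapped, as did those of Scn3b, with log2 fold changes of -0.06 for Scn4b and 0.01 for Scn3b.

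Of the 10 Cav alpha1 genes, 8 were tested, and all 8 had a negative log2 fold change, from -0.50 to -0.18 with a median of -0.31. In the longest class of genes, where all 8 lie, 2651 of 3227 were negative, with a median of -0.25. That class has a median length of 6351 bases, beside 9395 bases for these 8 genes. Only Cacna1i and Cacna1d passed the test with edgeR (25.0%) and none rose. Beside this, 12.4% of all genes and 36.0% of the longest class fell. In 4 of the 8 every Sox2 cKO library lay below every Ctrl library, beside 51.4% of the longest class and 22.1% of all genes. Cacna1i, a T-type channel that opens at low voltage (ENSMUSG00000022416, chr15:80287238-80398279, + strand), was at 46.5, 68.9 and 67.8 CPM in Ctrl and at 39.0, 45.7 and 45.0 CPM in Sox2 cKO. Ctrl library 2 lay just above the highest Sox2 cKO library and far below the other Ctrl libraries. The log2 fold change of Cacna1i was -0.50 (SE 0.14, adjusted p = 0.031, edgeR).

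Cacna1d, an L-type channel that supports pacemaking and persistent currents (ENSMUSG00000015968, chr14:30039939-30491455, - strand), was at 25.1, 28.3 and 28.0 CPM in Ctrl and at 19.6, 21.9 and 22.9 CPM in Sox2 cKO. Both groups were narrow and did not overlap, with a log2 fold change of -0.34 (SE 0.10, adjusted p = 0.033, edgeR). Exons of Cacna1d share 589 bases with Chdh on the opposite strand, and whether the counting used strand is not stated, so reads of the 2 genes may not be told apart there.

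Cacna1a, the P/Q-type channel of many presynaptic terminals, had the highest level per length of the family, a mean of 11.5 FPKM over all libraries. It was at 89.8, 103 and 102 CPM in Ctrl and at 75.5, 88.6 and 88.3 CPM in Sox2 cKO. The groups were narrowly apart, and the log2 fold change of -0.23 (SE 0.09) missed the threshold (adjusted p = 0.094, edgeR). Cacna1b, the N-type channel, was at 56.6, 64.5 and 75.2 CPM in Ctrl and at 51.4, 56.2 and 54.3 CPM in Sox2 cKO, with a log2 fold change of -0.28 (SE 0.10, adjusted p = 0.075, edgeR). For the second L-type gene Cacna1c (log2 fold change -0.35) and the T-type gene Cacna1h (-0.41), whose groups overlapped, DESeq2 gave adjusted p-values of 0.031 and 0.039 where edgeR gave 0.059 and 0.077.

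Cacna1g, the third T-type gene, had the smallest change of the family, at 73.6, 86.8 and 87.3 CPM in Ctrl and 68.1, 79.2 and 71.2 CPM in Sox2 cKO. Its log2 fold change was -0.18 (SE 0.09, adjusted p = 0.17, edgeR), and the groups overlapped. The make-up of the family stayed close between groups. Cacna1a held 21.7% to 24.3% of the summed alpha1 FPKM in Ctrl and 23.0% to 24.7% in Sox2 cKO, and the T-type gene Cacna1i 10.2% to 12.4% in Ctrl and 9.65% to 10.2% in Sox2 cKO.

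None of the 4 alpha2delta genes passed the test, and all 4 had negative log2 fold changes with a median of -0.14. Cacna2d1, Cacna2d2 and Cacna2d4 lie in the longest class, where 2651 of 3227 genes were negative. Cacna2d3 had the highest level per length, a mean of 21.4 FPKM over all libraries. It was at 77.7, 84.8 and 75.6 CPM in Ctrl and at 75.6, 83.8 and 77.7 CPM in Sox2 cKO. These ranges nearly coincided, with a log2 fold change of -0.01 (SE 0.08, adjusted p = 0.96, edgeR). Cacna2d1 and Cacna2d2, the subunits that bind gabapentin, had log2 fold changes of -0.15 and -0.13. Cacna2d4 was the lowest of the family in level, at 3.14, 3.58 and 3.96 CPM in Ctrl and 2.42, 3.07 and 2.95 CPM in Sox2 cKO, and its groups did not overlap. Its log2 fold change of -0.33 had an SE of 0.19 (adjusted p = 0.21, edgeR).

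The 4 Cav beta genes encode cytoplasmic subunits that bind the alpha1 pore and favour its surface expression, and none passed the test. Cacnb1 had the highest level per length, a mean of 15.2 FPKM over all libraries, and was at 52.1, 54.3 and 54.9 CPM in Ctrl and 50.0, 48.7 and 49.4 CPM in Sox2 cKO. The groups did not overlap although the log2 fold change of Cacnb1 was only -0.12 (SE 0.07, adjusted p = 0.23, edgeR). Cacnb4 had the lowest fold change of the family, at 123, 133 and 120 CPM in Ctrl and 98.2, 125 and 114 CPM in Sox2 cKO, and Cacnb3 the highest, at 29.6, 32.3 and 33.4 CPM in Ctrl and 34.7, 33.4 and 32.6 CPM in Sox2 cKO. Both had overlapping groups, with log2 fold changes of -0.16 for Cacnb4 and 0.08 for Cacnb3. The log2 fold change of Cacnb2 was -0.07.

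The summed alpha2delta and beta FPKM stood at 1.68 to 2.01 times the summed alpha1 FPKM in Ctrl and at 2.07 to 2.14 times in Sox2 cKO. Both auxiliary sums had overlapping groups, with 43.7 to 46.9 FPKM for alpha2delta and 48.5 to 50.7 FPKM for beta in Ctrl, beside 44.5 to 48.5 FPKM and 49.3 to 51.9 FPKM in Sox2 cKO. The alpha1 sum was 46.2 to 55.9 FPKM in Ctrl and 43.8 to 48.5 FPKM in Sox2 cKO. The tested alpha1 transcripts were longer (median 9395 bases) than those of alpha2delta (5806 bases) and beta (3670 bases). With the length correction given below, the median log2 fold changes of the 3 families went from -0.31, -0.14 and -0.10 to 0.08, 0.05 and -0.00. The part of gene length in the ratio of auxiliary to alpha1 sums was not tested.

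All 6 Cav gamma genes were tested, and 1 fell and 1 rose (16.7% each, beside 12.4% and 12.2% of all genes). Cacng2, which encodes stargazin, the founding TARP (ENSMUSG00000019146, chr15:77991748-78120028, - strand), was at 161, 193 and 201 CPM in Ctrl and at 131, 137 and 146 CPM in Sox2 cKO. The groups did not overlap, and the log2 fold change of Cacng2 was -0.42 (SE 0.10, adjusted p = 0.017, edgeR). Exons of Cacng2 share 323 bases with A730060N03Rik on the opposite strand, which had 365 counts in all libraries together.

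Cacng3, a second TARP of the same type (ENSMUSG00000066189, chr7:122670492-122769393, + strand), was at 14.8, 11.8 and 14.1 CPM in Ctrl and at 17.0, 17.0 and 18.2 CPM in Sox2 cKO. It was higher in every Sox2 cKO library, with a log2 fold change of 0.36 (SE 0.11, adjusted p = 0.043, edgeR). Cacng7, a TARP of the other type, had the highest level per length of the family, a mean of 80.5 FPKM over all libraries, and was at 183, 167 and 151 CPM in Ctrl and 178, 200 and 185 CPM in Sox2 cKO. Its groups overlapped, with a log2 fold change of 0.17 (SE 0.09, adjusted p = 0.21, edgeR).

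The ratio of Cacng2 to Cacng7 in FPKM was 0.353, 0.462 and 0.531 in Ctrl and 0.295, 0.275 and 0.315 in Sox2 cKO, without overlap. Cacng2 held 19.9% to 24.2% of the summed gamma FPKM in Ctrl and 16.5% to 18.1% in Sox2 cKO. Cacng2 is the longer gene, with 5510 bases beside 2207 for Cacng7. With the length correction given below, their log2 fold changes were -0.24 (adjusted p = 0.053, edgeR) and 0.03. The part of gene length in the ratio was not tested. The remaining TARP genes Cacng4, Cacng5 and Cacng8 had log2 fold changes of -0.21, 0.01 and -0.33, and none passed the test.

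**Figure D2:**
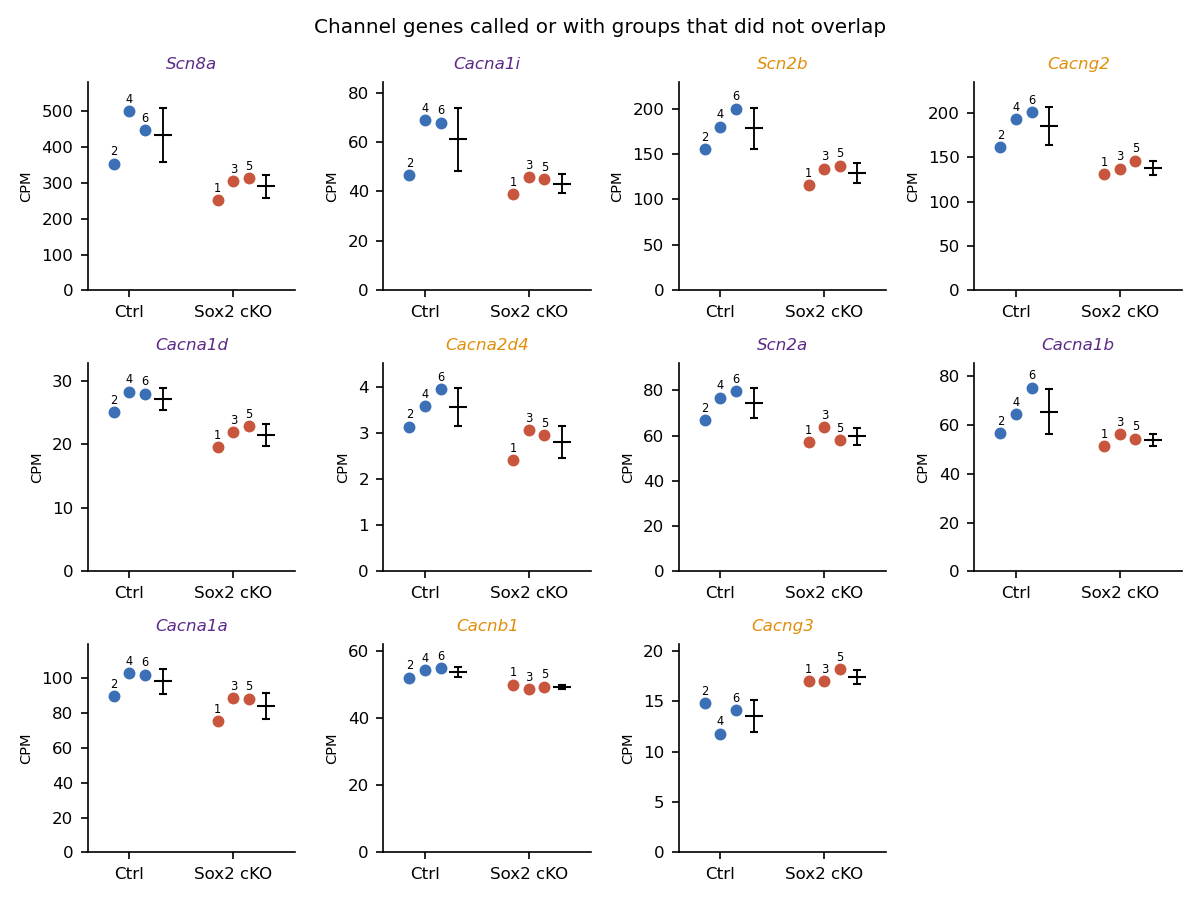
CPM (y axis, from 0) in each library of 7 of the 8 channel genes called and of the 4 others whose groups did not overlap, with library numbers beside the points and the mean ± SD of 3 libraries as a black bar. Purple titles mark pore subunits and orange titles auxiliary subunits. Ctrl library 2 was the lowest Ctrl library in each of the 10 genes that were lower in Sox2 cKO and the highest Ctrl library in Cacng3, which was higher.

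The pore and auxiliary subunits were contrasted next. Among the 15 pore genes 4 fell and none rose (26.7% called), 13 had a negative log2 fold change, and the median was -0.28. Among the 18 auxiliary genes 2 fell and 2 rose (22.2% called), 12 had a negative log2 fold change, and the median was -0.10. The pore transcripts had a median length of 9054 bases (7338 to 14921) and the auxiliary transcripts one of 3825 bases.

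Gene length moved with the fold change in all genes. When the 16137 genes tested were divided into 5 equal classes by length, 36.0% fell and 1.74% rose in the longest class (from 4872 bases up), and the median log2 fold change there was -0.25. In the shortest class (up to 1708 bases) 1.73% fell and 30.4% rose, with a median of 0.30. All 15 pore genes lay in the longest class, and their share of falls, 26.7%, was below that class's 36.0%. In that class 2651 of 3227 genes had a negative log2 fold change, beside 7753 of all 16137 genes tested. The 6 auxiliary genes of the longest class had a median of -0.15 with 1 fall, and the 12 shorter ones a median of 0.00 with 1 fall and 2 rises. Across genes, Spearman's rho between length and log2 fold change was -0.48 over all genes tested, -0.56 over the 33 channel genes, -0.36 over the pore genes and -0.55 over the auxiliary genes, as a description, since these genes share the same 6 libraries.

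When each library's trend with gene length was removed in the edgeR fit, no pore gene was called (5 at an unadjusted p below 0.05), and the median log2 fold change of the pore genes turned from -0.28 to 0.08. The median of the auxiliary genes turned from -0.10 to 0.03. With this correction 13.1% of all genes tested were called (6.99% lower, 6.08% higher), beside 2 channel genes, Scn2b (log2 fold change -0.36, adjusted p = 0.032) and Cacng8 (-0.52, adjusted p = 0.044). Scn8a was at -0.18 (adjusted p = 0.11), Cacng2 at -0.24 (adjusted p = 0.053) and Cacng3 at 0.29 (adjusted p = 0.088). Scn2a and Cacna1d were at 0.02 and 0.00. Scn2b was thus the only channel gene called in the fits with and without the length correction.

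**Figure D3:**
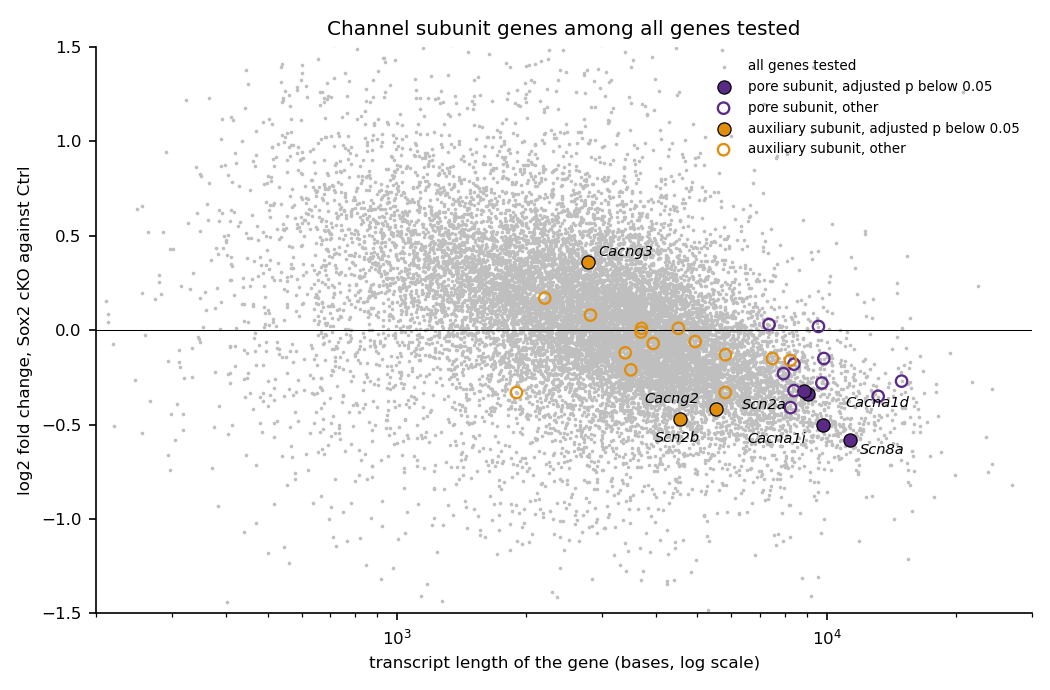
Log2 fold change (y axis) against transcript length in bases (x axis, log scale) for all genes tested (grey) and for pore (purple) and auxiliary (orange) subunit genes, filled where the adjusted p was below 0.05. Of the genes tested 112 lie outside the axes. The grey cloud slopes from a median of 0.30 in the shortest class to -0.25 in the longest, and the channel genes lie along it, with Scn2b below the bulk of genes of its length and Cacng3 above it.

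The libraries within a group differed in the same way. The median deviation from the mean over libraries, in log2 CPM, of the longest class minus the shortest class of all genes was 0.05, 0.39 and 0.34 in Ctrl and -0.42, -0.18 and -0.19 in Sox2 cKO. The median deviation of the pore genes was -0.07, 0.24 and 0.26 in Ctrl and -0.23, -0.07 and -0.12 in Sox2 cKO, so Ctrl library 2 stood at the level of Sox2 cKO library 3. That of the auxiliary genes was -0.01, 0.06 and 0.09 in Ctrl and -0.10, 0.04 and -0.04 in Sox2 cKO, and the groups overlapped. The part of RNA integrity in the length trend was not tested, since the labels and the study's methods give only a minimum RNA integrity number for all samples, and they differ on it.

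**Figure D4:**
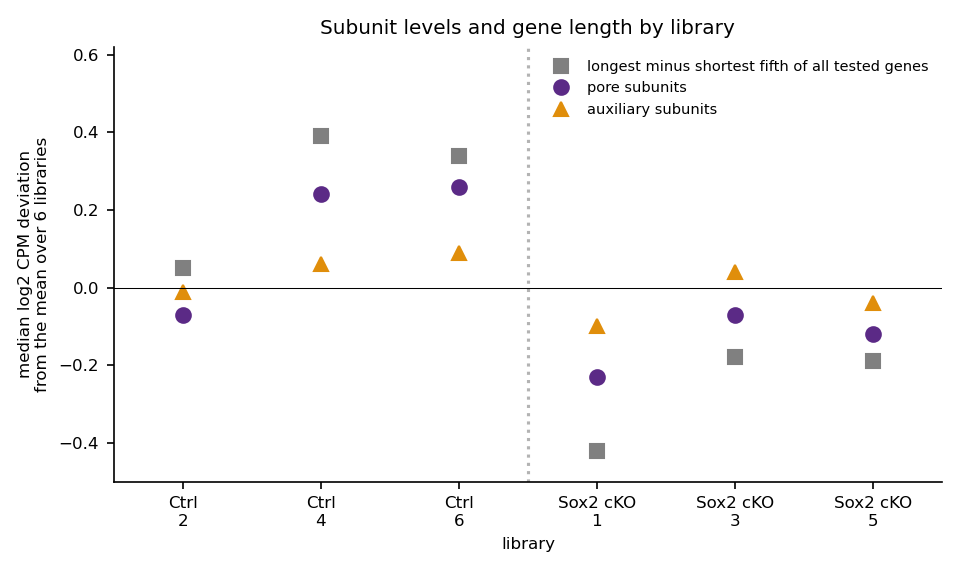
Median deviation from the mean over the 6 libraries, in log2 CPM (y axis), of pore subunit genes (circles) and auxiliary subunit genes (triangles) in each library (x axis), beside the gap between the longest and the shortest class of all genes tested (squares). The pore genes were lowest in Sox2 cKO library 1 (-0.23) and highest in Ctrl libraries 4 and 6 (0.24 and 0.26), the libraries with the extreme length gaps.

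The 4 channel genes with too few counts to be tested did not follow the groups. Scn10a and Scn11a, channels of nociceptive neurons of the dorsal root ganglion, neighbour each other on chromosome 9. Scn10a had 1, 95 and 2 counts in Ctrl and 1, 4 and 44 counts in Sox2 cKO, and Scn11a had 1, 54 and 0 counts in Ctrl and 4, 2 and 22 counts in Sox2 cKO. Both genes thus had most of their counts in Ctrl library 4 and Sox2 cKO library 5. Markers of primary sensory neurons other than these channels summed to 3.10, 8.61 and 4.15 CPM in Ctrl and 4.26, 3.68 and 5.97 CPM in Sox2 cKO, highest in the same libraries. Without these 2 libraries, no channel gene was called by edgeR (5 at an unadjusted p below 0.05), beside 0.229% of all genes tested, and DESeq2 called Scn8a and Scn2b, beside 8.16%. The DESeq2 log2 fold changes of the 2 genes were then -0.54 and -0.53.

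Cacna1s, the channel of skeletal muscle, had 6, 7 and 6 counts in Ctrl and 13, 3 and 22 counts in Sox2 cKO. The 7 skeletal muscle markers summed to 15.03, 9.15 and 8.79 CPM in Ctrl and to 36.59, 5.83 and 79.97 CPM in Sox2 cKO. Sox2 cKO libraries 1 and 5 were highest in both. Cacna1f, a channel of retinal photoreceptors, had 8, 17 and 13 counts in Ctrl and 7, 11 and 11 counts in Sox2 cKO.

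**Figure D5:**
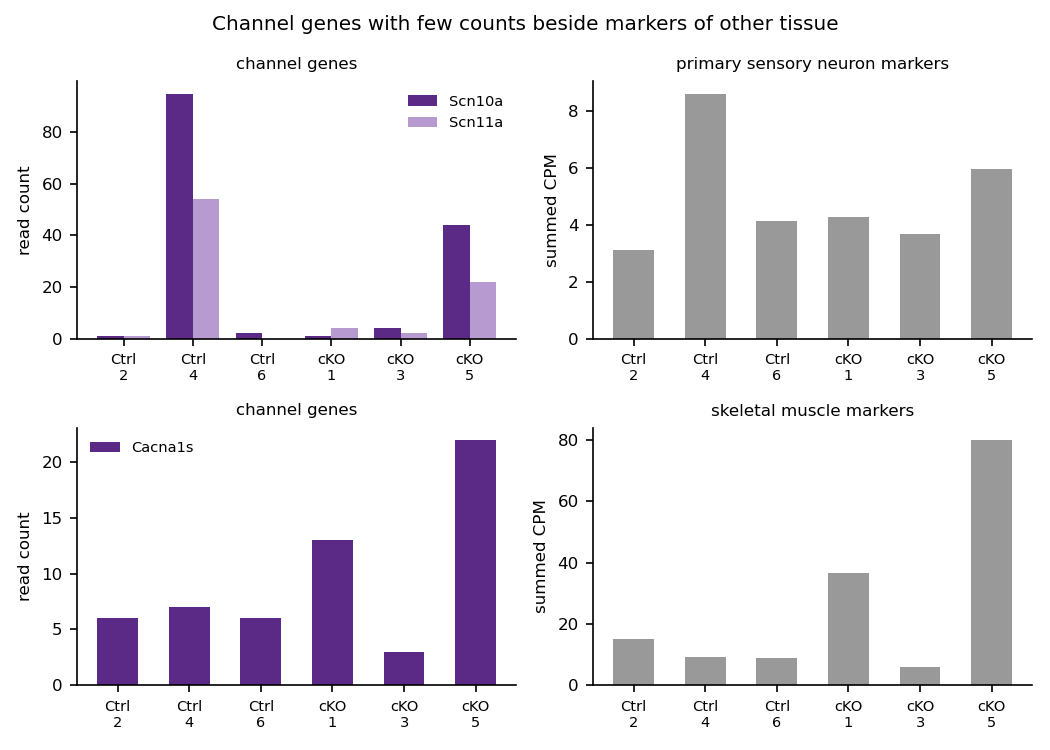
Read counts of Scn10a, Scn11a and Cacna1s in each library (left, bars from 0), beside the summed CPM of markers of primary sensory neurons and of skeletal muscle (right, bars from 0). Ctrl library 4 (95 counts of Scn10a) and Sox2 cKO library 5 (44 counts) are highest in the upper row, and Sox2 cKO libraries 5 and 1 are highest in the lower row.

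A list of 36 genes whose products bind, place or regulate these channels was counted in the same fit, and 35 were found and tested. Of these, 12 fell (34.3%, beside 12.4% of all genes) and 2 rose (5.71%, beside 12.2%), and their median log2 fold change was -0.22. Their median length was 5441 bases, and 19 of the 35 lay in the longest class, where 36.0% of all genes fell. With the length correction 4 were called lower and 1 higher, beside 6.99% and 6.08% of all genes, and the median of the list was -0.06. In the group listed for the axon initial segment and node 6 of 7 genes fell, with a median of -0.52, and all 7 lay in the longest class. Ank3, which encodes the ankyrin that anchors sodium channels there, was at 487, 679 and 644 CPM in Ctrl and at 331, 420 and 435 CPM in Sox2 cKO, with a log2 fold change of -0.61 (SE 0.14, adjusted p = 0.017, edgeR). Nfasc, the cell adhesion protein neurofascin, was at 617, 843 and 846 CPM in Ctrl and at 453, 488 and 527 CPM in Sox2 cKO, with a log2 fold change of -0.65 (SE 0.13, adjusted p = 0.013, edgeR). In both genes every Sox2 cKO library lay below every Ctrl library.

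In the group listed for the initial segment and node, Ank2, a second ankyrin, also fell (log2 fold change -0.52). So did the spectrin Sptb (-0.67) and the adhesion proteins Nrcam (-0.49) and Cntn1 (-0.50). Sptbn4, the spectrin of the initial segment, was at -0.27 and was called by DESeq2 (adjusted p = 0.041) but not by edgeR (adjusted p = 0.082). With the length correction, Sptb (-0.29, adjusted p = 0.043), Nfasc (-0.28, adjusted p = 0.037) and Cntn1 (-0.31, adjusted p = 0.030) were called. Ank3 (-0.24, adjusted p = 0.067), Nrcam (-0.19, adjusted p = 0.095) and Ank2 (-0.06, adjusted p = 0.56) lost the call under that correction, and Sptbn4 turned to 0.07. Nfasc and Cntn1 are also transcribed in the oligodendrocyte lineage, and that lineage's part was not tested. Of its 7 precursor markers 6 fell, while none of the 8 markers of oligodendrocytes themselves was called in either direction. The sums of those 8 markers overlapped, with 31887 to 35671 CPM in Ctrl and 32147 to 34717 CPM in Sox2 cKO.

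Among partners of calcium channels, the presynaptic tethers Erc1 and Rims2 fell (log2 fold changes -0.60 and -0.37), whereas Rims1 and Rimbp2 did not pass with either tool and Erc2 was called by DESeq2 (adjusted p = 0.040) but not by edgeR (adjusted p = 0.057). Calm3 fell (-0.31) and Calm2 rose (0.50), and both encode calmodulin, the calcium sensor of these channels. Rem2, a small GTPase that inhibits calcium channels, rose from 3.07 ± 0.730 CPM to 4.87 ± 0.788 CPM (SD, n = 3, log2 fold change 0.66). Unc79 of the sodium leak channel complex fell (-0.31), as did Cachd1 (-0.35), a protein related to alpha2delta. With the length correction Calm3 kept its call (-0.44, adjusted p = 0.027), while Erc1 (-0.27), Rims2 (-0.24), Calm2 (0.20), Rem2 (0.48), Cachd1 (-0.16) and Unc79, which turned to 0.03, lost theirs, at adjusted p-values from 0.061 for Erc1 to 0.81 for Unc79. Of the AMPA receptor genes, the partners of the TARPs, Gria1 fell (-0.42, adjusted p = 0.021, edgeR) and Gria2, Gria3 and Gria4 did not pass. With the length correction this turned, as Gria2 was called higher (0.51, adjusted p = 0.028) and Gria1 lost its call (-0.24, adjusted p = 0.060). None of the FGF homologous factor genes (4 tested) or STAC adaptor genes (3 tested) passed.

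Promoters of the channel genes were searched for ACAAAG, the core of the sequence that SOX proteins bind, on either strand (CTTTGT where it lies on the other strand), in RefSeq windows from 250 bases before to 50 bases after the start site (GRCm38.p6). Of the 37 channel genes 28 had a window, and 8 of these (28.6%) held the motif, beside 21.0% of all genes with a window. All 6 genes that fell had a window and 3 held the motif, and the stretches are shown because they belong to genes that fell, with the motif in capitals and each sequence read along the gene's strand.
Scn8a, chr15:100936084-100936113: ccgaggaccattACAAAGgtcacccaagcc
Scn2a, upstream start, chr2:65620529-65620558: ttttaaaaaaccACAAAGtataatgacatt
Scn2a, downstream start, chr2:65668603-65668632: ataaaaatgtcaCTTTGTagtccccgcagc
Cacna1i, chr15:80287037-80287066: tacgcatgatggACAAAGcccagggccaaa
In Scn8a the motif began at position -175 from a downstream start site, which lies inside the gene (annotated from chr15:100869858). In Scn2a the motif began at -228 and -71 from its start sites, and in Cacna1i at -189. It was also present in Cacna1c, Cacna1e, Cacnb3, Cacnb4 and Scn9a, of which edgeR called none and DESeq2 called Cacna1c. A match describes only these letters and is not a site of binding.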

How the data were processed

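Poly(A) RNA from 6 spinal cords was sequenced as single-end reads from a directional library kit. The authors aligned reads to mm10 with STAR (version 2.5 in the submitters' processing notes), counted them per gene with HTSeq (version 0.6.1) and deposited raw counts per gene together with FPKM values, which the authors made from those counts and each gene's length. Columns of the tables carry numbers and no sample names. Their last digits were grouped by the numbers the study gives its Ctrl and Sox2 cKO mice on a protein blot, so the groups rest on that numbering, and which labelled replicate a column is could not be told. No library repeats another, with 7.17 to 90.1 times the counting variance in the 15 pairs.

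Counts were fitted with edgeR 4.0.16 in R 4.3.3 (TMM normalization, filterByExpr, quasi-likelihood test, threshold 0.05). The fit was also run on simulated counts, whose outcome is not given here. Lengths recovered from counts and FPKM were whole numbers (within 0.01) for all 24442 genes that had one, symbols and positions came from GENCODE M21, which matched 34490 rows, and the promoter sequences from RefSeq. Alternatives were DESeq2 1.42.0, upper quartile normalization, filters on low counts, limma 3.58.1 on log2(FPKM + 1) or log2(FPKM + 0.1) (mean FPKM of 0.5 or more), lowess offsets (span 0.3) against gene length or GC content, and leaving out libraries. The channel genes, the partner list and the markers were chosen with earlier results of these data known. Named were all genes called or with groups that do not overlap, the highest gene per length and the largest and smallest fold change in each family, and untested genes. A few genes of these lists are counted in the totals but not reported here by name.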

Additional observations from a re-analysis of the deposited data

How the results depend on the processing

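No paired analysis was possible because the columns carry mouse numbers that cannot be matched to the labelled replicate numbers. Of the comparisons of single channel genes reported by name with an alternative, 522 kept direction and side of the threshold, 69 lost the call, 30 gained one and 61 changed sign. The count of channel genes called (8) was 5 with limma on log2(FPKM + 1) and 5 with limma on log2(FPKM + 0.1), 2 with the length correction, and 0 to 19 with 1 library left out (3 to 18 with DESeq2). Without Ctrl library 4 and Sox2 cKO library 5, settings chosen after seeing the data, it was 0 with edgeR (5 at an unadjusted p below 0.05) and 2 with DESeq2. The count for pore subunits (4) was 7 with DESeq2, 1 with either limma setting, 0 with the length correction, 0 to 12 with 1 library left out (1 to 11 with DESeq2), and 0 and 1 without both of those libraries by edgeR and DESeq2. The count for auxiliary subunits (4) was 2 with the length correction, 0 to 7 with 1 library left out (2 to 7 with DESeq2), and 0 and 1 without both libraries. The count of partner genes (14) was 5 with the length correction, 0 to 21 with 1 library left out (10 to 21 with DESeq2), and 0 and 6 without both libraries. With the GC correction the 8 calls were 8 falls and no rise, where the reported split was 6 and 2.

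The median of the pore genes (-0.28) was 0.08 with the length correction and -0.38 to -0.20 with 1 library left out (-0.40 to -0.21 with DESeq2). That of the auxiliary genes (-0.10) was 0.00 with either limma setting, 0.03 with the length correction, and -0.12 to -0.03 with 1 library left out (-0.13 to -0.04 with DESeq2). The length correction turned the sign of Cacna1a (0.08), Cacna1b (0.09), Cacna1c (0.09), Cacna1d (0.00), Cacna1e (0.20), Cacna1g (0.14), Cacnb4 (0.15), Scn1a (0.00), Scn2a (0.02), Scn9a (0.22), Scn4b (0.07), Cacna2d1 (0.14), Cacna2d2 (0.07) and Cacna2d3 (0.02). Limma with pseudocounts of 1 and 0.1 did so for Cacnb2 (0.02 and 0.03), Scn4b (0.03 and 0.03) and Cacna2d3 (0.09 and 0.09), DESeq2 for Scn3b (-0.00), and upper quartile and GC settings for Cacna2d3 (0.04 and 0.00). Without both libraries Scn3b (-0.05 by edgeR, -0.06 by DESeq2) and Cacna2d3 (0.05 and 0.04) turned. With 1 library left out in edgeR or DESeq2, signs turned for Scn7a (-0.14 to 0.28), Scn3b (-0.04 to 0.07), Cacng5 (-0.06 to 0.10), Cacna2d3 (-0.07 to 0.04), Scn3a (-0.12 to 0.07), Scn4b (-0.12 to 0.01) and Cacnb2 (-0.12 to 0.00). Upper quartile normalization and limma moved the median of all genes to 0.06 and 0.09. The cause of these changes was not tested.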
